A study of Mus musculus with 12 samples.

Results

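The 9 genes Tcf7, Lef1, Satb1, Foxo1, Klf2, S1pr1, Foxp1, Bach2 and Dapl1, which T cells transcribe in the resting state and of which several control passage through lymph nodes, were taken by name from the 55413 genes of a bulk RNA-seq series on mouse regulatory T cells (Treg cells), a CD4 lineage that restrains other immune cells. All 9 had counts in each of the 12 libraries, down to 16 counts for Dapl1 in 1 of them, and all 9 were among the 15705 genes that passed the filter on low counts. The series held 3 libraries of tumor pTreg, 5 of tumor tTreg and 4 of LN Treg. Tumor pTreg and tumor tTreg were sorted on day 18 from tumors of Hepa1-6 cells, a mouse hepatoma line, in TCRbd-/- hosts, which have no T cells of their own and keep other leukocytes. The hosts had been given tTreg (Treg cells of thymic origin) of CD45.1 Foxp3YFP-cre donors along with conventional CD4+ (Foxp3-) cells and CD8+ T cells of CD45.2 Foxp3YFP-cre donors, in parts of 1, 10 and 8, and the tumor cells 3 days afterwards. The name pTreg stands for Treg cells that arise outside the thymus. LN Treg were total Treg cells from lymph nodes of untreated tumor-free mice, with the genotype given as for the tumor groups, Foxp3YFP-cre and TCRbd-/-. The labels do not say whether the mice of this group had received cells. Foxp3YFP-cre places a YFP-Cre fusion under the Foxp3 gene, so that YFP marks cells that transcribe Foxp3. The sorting gates, the ages of the mice and whether libraries came from separate animals are not given in the sources used here, so the spread behind the p-values is one between libraries and may come from handling alone.

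Foxo1 stays in the nucleus of a resting T cell while PI3K and AKT signalling is low, and there it drives genes such as Klf2, Il7r and Ccr7. Klf2 in turn drives S1pr1, the receptor with which lymphocytes follow sphingosine 1-phosphate out of lymph nodes. Tcf7, Lef1, Satb1, Foxp1 and Bach2 encode nuclear proteins that maintain the resting state or hold back effector differentiation, and Treg cells of non-lymphoid tissues are known mostly as activated cells in which such genes are low.

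The tumor libraries held far fewer T cell transcripts than the lymph node libraries. In sum, 18 genes that all T cells use (the pan-T genes, such as Cd3e, Trac, Lck and Cd28) reached 1384 ± 16.2 CPM (counts scaled to library size) in tumor pTreg, 136 ± 2.90 CPM in tumor tTreg and 6423 ± 67.9 CPM in LN Treg (SD, n = 3, 5 and 4). All 6 Treg markers on the list, Foxp3 among them, had counts in each group, and they summed to 298 to 313 CPM in tumor pTreg, 87.1 to 91.2 CPM in tumor tTreg and 2738 to 2821 CPM in LN Treg. Macrophage markers summed to 5477 to 5534 CPM in tumor pTreg, 5594 to 5914 CPM in tumor tTreg and 34.9 to 42.4 CPM in LN Treg, and markers of Hepa1-6 cells or hepatocytes to 9480 to 9804 CPM in tumor pTreg, 11699 to 12294 CPM in tumor tTreg and 23.1 to 26.9 CPM in LN Treg, with Serpina1a at 0 in both tumor groups and Fgb at 0 in LN Treg. Among the hepatoma or hepatocyte markers Apoe had the most counts, at a mean of 73597 in tumor pTreg and 71358 in tumor tTreg. Of the 7 tested markers of this list it was the 1 not called between the tumor groups. The other 6, such as Alb (39206 and 56913), were called lower in tumor pTreg, where 25.3% of all tested genes were. The part of macrophages in the Apoe counts, and so in the sum of this list, was not tested. Ttr and Apoa1 had means of only 1 to 3.2 counts in the tumor groups. All 10 macrophage markers were called higher in each tumor group than in LN Treg. So were the 7 of 10 hepatoma or hepatocyte markers that were tested. Among all tested genes 47.6% were called higher in tumor pTreg than in LN Treg, and 48.1% in tumor tTreg. Library totals ran between 18.0 and 18.2 M counts for tumor pTreg, between 18.1 and 18.5 M for tumor tTreg, and between 14.6 and 17.3 M for LN Treg. In bulk samples of this kind fewer T cells and less RNA of a gene per T cell cannot be told apart, and the part of the other cells in the results that follow was not tested. Levels are therefore given per library (CPM, or FPKM where genes are compared with each other, since FPKM also divides by transcript length) and as counts per 100 pan-T counts. For a gene with transcripts from other cells as well, the pan-T scale gives no level of the T cells.

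In both tumor groups 7 of the 9 genes, Tcf7, Lef1, Satb1, Foxo1, S1pr1, Foxp1 and Bach2, made up a much smaller part of the library than in LN Treg, while Klf2 in both tumor groups and Dapl1 in tumor tTreg came nearer to their lymph node levels. Their FPKM summed to 263 ± 5.11 in tumor pTreg, 204 ± 10.2 in tumor tTreg and 1041 ± 11.9 in LN Treg. Klf2 took 65.6% of that sum in tumor pTreg, 70.9% in tumor tTreg and 20.4% in LN Treg. Tcf7 took 11.5% in tumor pTreg, 11.5% in tumor tTreg and 31.1% in LN Treg, and Satb1 took 5.46% in tumor pTreg, 0.750% in tumor tTreg and 14.5% in LN Treg. In tumor pTreg the order of mean FPKM ran Klf2, Tcf7, S1pr1, Satb1, Foxp1, Foxo1, Lef1, Dapl1, Bach2, and the ranges of neighbouring genes overlapped for Lef1 and Dapl1 only. In tumor tTreg it ran Klf2, Tcf7, S1pr1, Foxp1, Dapl1, Foxo1, Lef1, Satb1, Bach2, with overlap between Foxp1 and Dapl1, between Lef1 and Satb1, and between Satb1 and Bach2. In LN Treg it ran Tcf7, Klf2, Satb1, S1pr1, Lef1, Foxp1, Foxo1, Bach2, Dapl1, with no overlap between neighbours. Satb1 was thus the fourth in tumor pTreg, the eighth in tumor tTreg and the third in LN Treg.

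**Figure D1:**
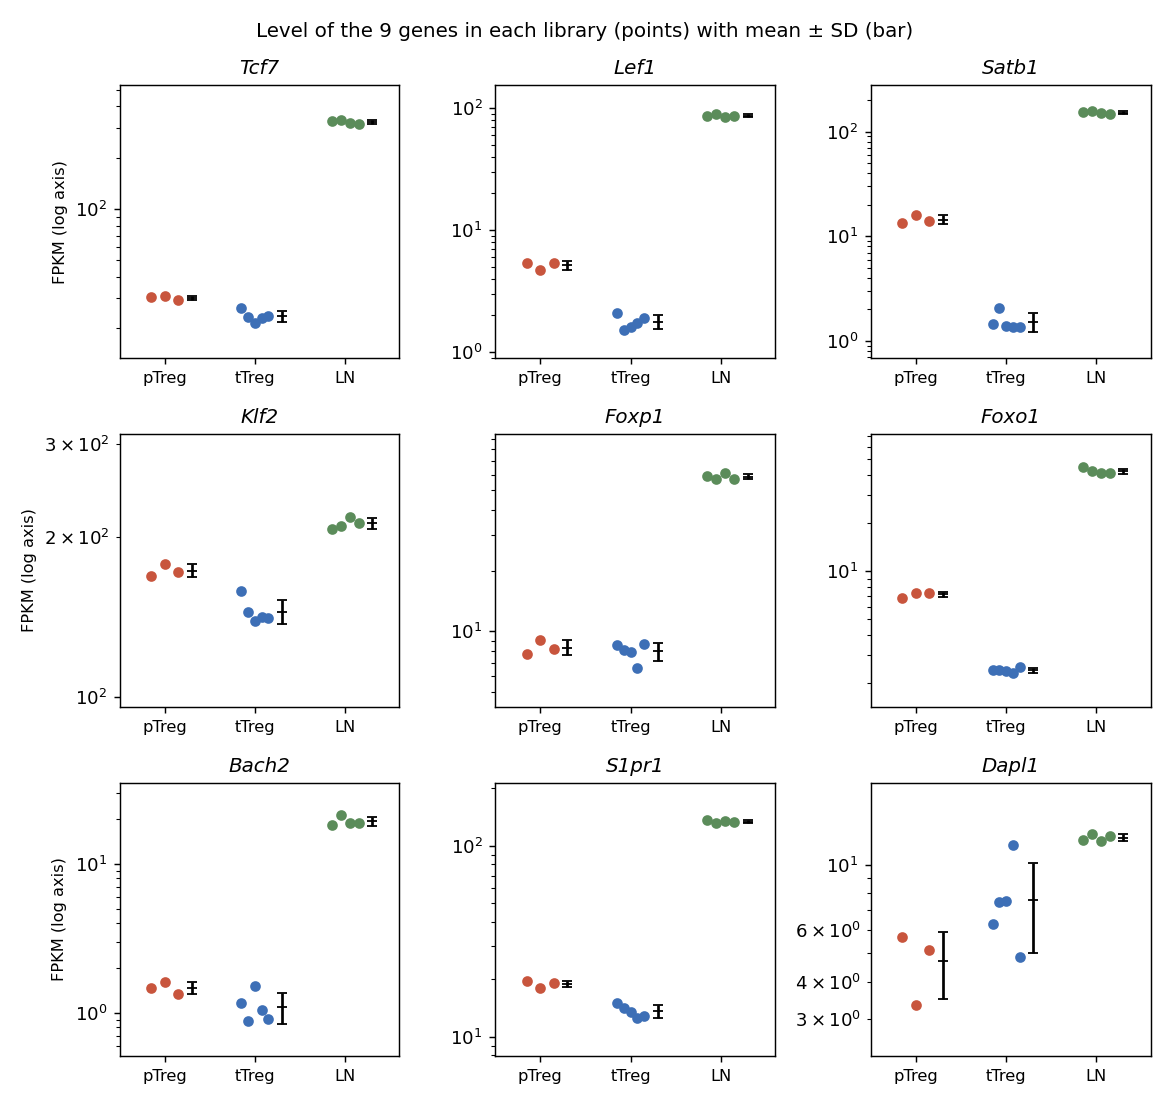
FPKM of each gene in every library on a log axis, with tumor pTreg (3 libraries), tumor tTreg (5) and LN Treg (4) from left to right and a bar for mean ± SD. Satb1 separates all 3 groups, at means of 14.4, 1.53 and 152 FPKM, whereas Klf2 stays within 139 to 219 FPKM in all 12 libraries.

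Tumor pTreg and tumor tTreg came from the same kind of host and tumor, and their comparison sets libraries named for Treg cells of 2 origins side by side. These libraries also held transcripts of other cells, as given above. Of the 9 genes, 8 were called higher in tumor pTreg and 1, Dapl1, was called lower (edgeR quasi-likelihood test, Benjamini-Hochberg adjusted p below 0.05), where 26.8% of all tested genes were called higher and 25.3% lower. The changes fell into 2 sizes. Satb1 was 11.3-fold, Foxo1 2.99-fold and Lef1 2.73-fold higher in tumor pTreg, and S1pr1, Tcf7, Bach2, Klf2 and Foxp1 were 1.17 to 1.40-fold higher. The median log2 fold change of the 9 genes was 0.38, against -0.01 for all tested genes and 3.51 for the 18 pan-T genes, all of which were called higher. The 2 CD8 T cell markers on the list, Cd8a and Cd8b1, moved the same way, with a sum of 30.7 to 33.9 CPM in tumor pTreg, 0.939 to 1.26 CPM in tumor tTreg and 18.3 to 23.0 CPM in LN Treg. Cd8a was 35.2-fold and Cd8b1 20.9-fold higher in tumor pTreg than in tumor tTreg. CD8 T cells also transcribe genes such as Tcf7, Lef1 and Satb1, and their part in the result was not tested. Against LN Treg all 9 genes were called lower in tumor pTreg, where 39.8% of tested genes were called lower and 47.6% higher, and all 9 were called lower in tumor tTreg, where 42.3% were called lower and 48.1% higher. The median log2 fold change of the 9 genes was -3.16 for tumor pTreg over LN Treg and -3.70 for tumor tTreg over LN Treg. It was 0.12 and 0.10 for all tested genes, and -2.31 and -5.59 for the 18 pan-T genes. Both of these comparisons use the same 4 LN Treg libraries and are not independent of each other. With libraries scaled to pan-T counts instead, the calls were 1 higher and 8 lower for tumor pTreg over tumor tTreg (0.548% and 97.1% of all tested genes), 2 higher and 7 lower for tumor pTreg over LN Treg (91% and 4.34%), and 8 higher and 1 lower for tumor tTreg over LN Treg (96.7% and 1.04%). The 8 lower calls in the first of these and the 8 higher calls in the last lie near the share of all genes. All 6 Treg markers were called higher in tumor pTreg than in tumor tTreg under TMM scaling, by a median of 3.03-fold. Scaled to pan-T counts, all 6 were called lower in tumor pTreg, by a median of 3.37-fold, as were 97.1% of all tested genes. Fold changes are under TMM scaling of whole libraries wherever pan-T counts are not named.

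The start regions of 4 of the genes are shown here: Satb1, which moved most between the tumor groups and for tumor tTreg over LN Treg, Lef1, Klf2, which moved least against LN Treg, and Dapl1, the one that differed in direction between the tumor groups. RefSeq promoter entries (GRCm38.p6, 250 bases before to 50 after the annotated start, read 5′ to 3′ on the strand of the gene) were found for 8 of the 9 genes, and S1pr1 was not matched. Each was searched on both strands for 4 short motifs: GTAAACA (forkhead, the FOXO type), CCACCC (the KLF type), CTTTGA (the TCF/LEF type) and TGACTCA (AP-1 or BACH core). Capitals mark the matches.
Satb1, chr17:51833241-51833540, minus strand, no match: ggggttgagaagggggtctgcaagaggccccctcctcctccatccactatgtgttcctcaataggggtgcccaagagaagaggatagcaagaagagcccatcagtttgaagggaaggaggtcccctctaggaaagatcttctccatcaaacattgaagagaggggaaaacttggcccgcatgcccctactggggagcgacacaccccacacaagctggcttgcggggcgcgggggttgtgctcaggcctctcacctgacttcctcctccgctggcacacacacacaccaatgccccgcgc
Lef1, chr3:131110073-131110372, plus strand, CCACCC from position -102: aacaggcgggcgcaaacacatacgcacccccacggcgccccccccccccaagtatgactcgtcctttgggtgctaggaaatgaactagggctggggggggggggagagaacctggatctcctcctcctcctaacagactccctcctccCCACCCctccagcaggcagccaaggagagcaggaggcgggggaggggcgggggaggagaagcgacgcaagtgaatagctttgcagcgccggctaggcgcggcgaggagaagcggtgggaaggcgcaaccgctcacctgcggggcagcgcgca
Klf2, chr8:72318812-72319111, plus strand, CCACCC read on the other strand from position -19: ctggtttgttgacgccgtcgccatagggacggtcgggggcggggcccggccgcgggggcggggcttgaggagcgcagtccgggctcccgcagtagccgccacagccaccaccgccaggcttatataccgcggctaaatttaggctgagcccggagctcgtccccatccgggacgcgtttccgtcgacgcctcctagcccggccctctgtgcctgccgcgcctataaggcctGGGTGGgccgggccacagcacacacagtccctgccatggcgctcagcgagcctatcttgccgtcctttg
Dapl1, chr2:59484403-59484702, plus strand, GTAAACA from position -164: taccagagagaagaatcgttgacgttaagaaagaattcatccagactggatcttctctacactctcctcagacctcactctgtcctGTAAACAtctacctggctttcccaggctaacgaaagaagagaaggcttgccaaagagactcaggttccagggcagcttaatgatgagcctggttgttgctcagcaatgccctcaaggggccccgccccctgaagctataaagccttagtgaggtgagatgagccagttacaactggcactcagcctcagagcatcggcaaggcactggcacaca
The forkhead letters were found in 1 of the 8 promoters, that of Dapl1, and in 3.65% of all 32851 promoters of the table. The KLF letters were found in 3 of 8 (Lef1, Klf2 and Foxp1) and in 31.5% of the table, the TCF/LEF letters in 1 of 8 (Bach2) and in 16%, and the AP-1 or BACH core in 0 of 8 and in 5.20%. These are matches of letters in 1 annotated window per gene. The RefSeq start behind the window lies away from the outermost GENCODE start of the gene by 29 bases for Klf2, 148 for Lef1, 1728 for Foxp1 and 178631 for Bach2.

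Tcf7 and Lef1 encode the HMG-box factors TCF-1 and LEF-1, which bind the same DNA motif, pair with beta-catenin and keep naive and memory T cells undifferentiated. Tcf7 (chr11:52252371-52283014, minus strand) had 30.5, 30.9 and 29.4 FPKM in the 3 tumor pTreg libraries, 26.2, 23.4, 21.4, 23.0 and 23.5 FPKM in the 5 tumor tTreg libraries and 329, 333, 320.2 and 316 FPKM in the 4 LN Treg libraries. The lymph node libraries were far above both tumor groups, and every tumor pTreg library was above every tumor tTreg library by a small margin. In CPM, Tcf7 was at 62.7 ± 1.81 in tumor pTreg, 48.6 ± 3.51 in tumor tTreg and 677 ± 15.9 in LN Treg. The log2 fold change was 0.38 for tumor pTreg over tumor tTreg (SE 0.0441, adjusted p = 3.49e-08), and Tcf7 was 10.0-fold lower in tumor pTreg and 13-fold lower in tumor tTreg than in LN Treg.

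Lef1 (chr3:131110471-131224356, plus strand) differed more between the tumor groups. It had 5.42, 4.69 and 5.40 FPKM in tumor pTreg, 2.10, 1.53, 1.60, 1.75 and 1.92 FPKM in tumor tTreg and 86.4, 90.3, 84.0 and 86.4 FPKM in LN Treg. None of the groups overlapped. Lef1 was 2.73-fold higher in tumor pTreg than in tumor tTreg (log2 fold change 1.45, SE 0.0902, adjusted p = 6.63e-14), 14.1-fold lower in tumor pTreg than in LN Treg and 38.5-fold lower in tumor tTreg than in LN Treg. Among the tested genes 5.14% had a greater log2 fold change than Lef1 between the tumor groups, and 16.9% had a greater one than Tcf7.

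Satb1 (chr17:51736187-51833290, minus strand) encodes a nuclear protein that ties AT-rich DNA into chromatin loops, is needed to set up the Treg program in the thymus and is repressed by Foxp3 in mature Treg cells. It had 13.3, 15.99 and 13.9 FPKM in tumor pTreg, 1.46, 2.08, 1.40, 1.35 and 1.36 FPKM in tumor tTreg and 153, 156, 149.6 and 147 FPKM in LN Treg. The 3 groups lay far apart from each other, and the second tumor tTreg library stood above the other 4 of its group. Satb1 was at 52.1 ± 2.14 CPM in tumor pTreg, 4.64 ± 0.243 CPM in tumor tTreg and 574 ± 9.99 CPM in LN Treg. Its log2 fold change was 3.50 for tumor pTreg over tumor tTreg (SE 0.0558, adjusted p = 6.58e-28), -3.36 for tumor pTreg over LN Treg (SE 0.0342, adjusted p = 6.59e-34) and -6.85 for tumor tTreg over LN Treg (SE 0.0402, adjusted p = 4.30e-39). Between the tumor groups 0.974% of tested genes had a greater log2 fold change, and for tumor tTreg over LN Treg 0.618% had a more negative one. Its 11.3-fold difference between the tumor groups lay near the median of the pan-T genes, which were 11.4-fold higher in tumor pTreg. Against LN Treg, Satb1 was 10.2-fold lower in tumor pTreg and 116-fold lower in tumor tTreg, while the median pan-T gene was 4.95-fold lower in tumor pTreg and 48.2-fold lower in tumor tTreg.

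Foxo1 (chr3:52268336-52353221, plus strand) encodes the forkhead factor that AKT drives out of the nucleus. It had 6.83, 7.36 and 7.32 FPKM in tumor pTreg, 2.41, 2.42, 2.39, 2.30 and 2.51 FPKM in tumor tTreg and 44.5, 42.0, 41.3 and 41.3 FPKM in LN Treg. No library of a group reached the range of another. Foxo1 was 2.99-fold higher in tumor pTreg than in tumor tTreg (log2 fold change 1.58, SE 0.0453, adjusted p = 5.94e-22), 5.48-fold lower in tumor pTreg than in LN Treg and 16.4-fold lower in tumor tTreg than in LN Treg.

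Klf2 (chr8:72319033-72321656, plus strand), the zinc finger factor of lymphocyte quiescence and trafficking, differed least from LN Treg in both tumor groups under TMM scaling. It had 169, 178 and 172 FPKM in tumor pTreg, 158, 144, 139, 142 and 140.4 FPKM in tumor tTreg and 208, 209.9, 219 and 213 FPKM in LN Treg. The groups did not overlap, but all 12 libraries lay within a narrow range. In CPM, Klf2 was at 267 ± 7.73 in tumor pTreg, 222 ± 13.1 in tumor tTreg and 327 ± 9.12 in LN Treg. The log2 fold change was 0.27 for tumor pTreg over tumor tTreg (SE 0.0349, adjusted p = 1.95e-07), -0.19 for tumor pTreg over LN Treg (SE 0.0363, adjusted p = 2.14e-05) and -0.46 for tumor tTreg over LN Treg (SE 0.0320, adjusted p = 7.57e-14). In tumor pTreg over LN Treg 39.7% of tested genes had a more negative log2 fold change than Klf2, against 13.5% for Dapl1 and 1.56 to 4.88% for Tcf7, Lef1, Satb1, Foxp1, Foxo1, Bach2 and S1pr1. In tumor tTreg over LN Treg the share was 34.3% for Klf2 and 30.1% for Dapl1, which lay close together, and 0.618 to 6.12% for the other 7 genes. Endothelial cells are known to express Klf2 and S1pr1 strongly. The part of these or of other cells in the Klf2 and S1pr1 levels was not tested. Of 7 tested endothelial markers 6 were called higher and 1, Pecam1, lower in each tumor group than in LN Treg. In tumor pTreg relative to tumor tTreg 5 were called higher and 1 lower. Among all tested genes 47.6% were called higher and 39.8% lower for tumor pTreg over LN Treg. The shares were 48.1% and 42.3% for tumor tTreg over LN Treg, and 26.8% and 25.3% between the tumor groups. The endothelial list of 8 genes summed to 56.6 to 65.1 CPM in tumor pTreg, 46.4 to 50.4 CPM in tumor tTreg and 188 to 193 CPM in LN Treg, and in LN Treg Pecam1 alone, which T cells also express, gave 189 CPM while Tek, Tie1, Cldn5 and Emcn were at 0.

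S1pr1 (chr3:115710433-115715072, minus strand), the target of Klf2 that carries lymphocytes out of lymph nodes, lay further below LN Treg than Klf2 did as a part of the library. It had 19.6, 18.1 and 19.2 FPKM in tumor pTreg, 15.1, 14.2, 13.4, 12.5 and 12.9 FPKM in tumor tTreg and 136, 131, 135 and 133 FPKM in LN Treg. All tumor pTreg libraries were above all tumor tTreg libraries, and both were far below LN Treg. S1pr1 was 1.40-fold higher in tumor pTreg than in tumor tTreg (log2 fold change 0.49, SE 0.0466, adjusted p = 7.08e-10), 6.57-fold lower in tumor pTreg than in LN Treg and 9.19-fold lower in tumor tTreg than in LN Treg. Klf2 was 1.14-fold lower in tumor pTreg and 1.38-fold lower in tumor tTreg than in LN Treg. Per pan-T count Klf2 was instead 3.78-fold higher in tumor pTreg and 32.1-fold higher in tumor tTreg. On that scale S1pr1 was lower in tumor pTreg and higher in tumor tTreg than in LN Treg. Among all tested genes 91% were called higher there for tumor pTreg and 96.7% for tumor tTreg.

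Foxp1 (chr6:98925338-99522721, minus strand) encodes a forkhead repressor that keeps naive T cells quiescent. It had 7.68, 9.08 and 8.16 FPKM in tumor pTreg, 8.60, 8.10, 7.87, 6.58 and 8.65 FPKM in tumor tTreg and 59.0, 57.0, 61.1 and 57.3 FPKM in LN Treg. The tumor groups overlapped in FPKM, although in CPM they did not, at 25.1 ± 0.299 in tumor pTreg and 21.5 ± 1.25 in tumor tTreg, against 241 ± 1.69 in LN Treg. On counts Foxp1 was 1.17-fold higher in tumor pTreg than in tumor tTreg (log2 fold change 0.23, SE 0.0498, adjusted p = 2.72e-04), and this call was lost in the limma fits to FPKM, with log2 fold changes of 0.06 and adjusted p-values of 0.570 to 0.590. Foxp1 was 8.93-fold lower in tumor pTreg and 10.5-fold lower in tumor tTreg than in LN Treg.

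Bach2 (chr4:32238804-32586108, plus strand) encodes a repressor that occupies AP-1 type sites and restrains effector differentiation, and it supports Treg cells in mice. It was the least abundant of the 9 genes per length in both tumor groups, with 1.47, 1.60 and 1.33 FPKM in tumor pTreg, 1.17, 0.880, 1.51, 1.04 and 0.910 FPKM in tumor tTreg, and 18.3, 21.3, 18.8 and 18.7 FPKM in LN Treg. The third tumor tTreg library lay within the range of tumor pTreg in FPKM. On counts Bach2 was 1.24-fold higher in tumor pTreg than in tumor tTreg (log2 fold change 0.31, SE 0.0780, adjusted p = 1.60e-03), and in the limma fits to FPKM the call was lost, with log2 fold changes of 0.24 (pseudocount of 1) to 0.40 (pseudocount of 0.1) and adjusted p-values of 0.0502 to 0.0606. Against LN Treg it was 14.4-fold lower in tumor pTreg and 17.9-fold lower in tumor tTreg.

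Dapl1 (chr2:59484653-59505020, plus strand), which encodes death-associated protein-like 1, rested on few counts. There were 27, 16 and 24 counts in tumor pTreg, 31, 35, 35, 56 and 22 counts in tumor tTreg and 52, 49, 57 and 55 counts in LN Treg. The tumor groups overlapped, and the fourth tumor tTreg library reached the lymph node counts. The log2 fold change was -0.65 for tumor pTreg over tumor tTreg (SE 0.245, adjusted p = 0.0270), and the call was lost without the second tumor pTreg library (-0.46, adjusted p = 0.171) or without the fourth tumor tTreg library (-0.43, adjusted p = 0.115). Dapl1 was 2.42-fold lower in tumor pTreg than in LN Treg (adjusted p = 1.69e-05) and 1.54-fold lower in tumor tTreg than in LN Treg (adjusted p = 3.06e-03).

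**Figure D2:**
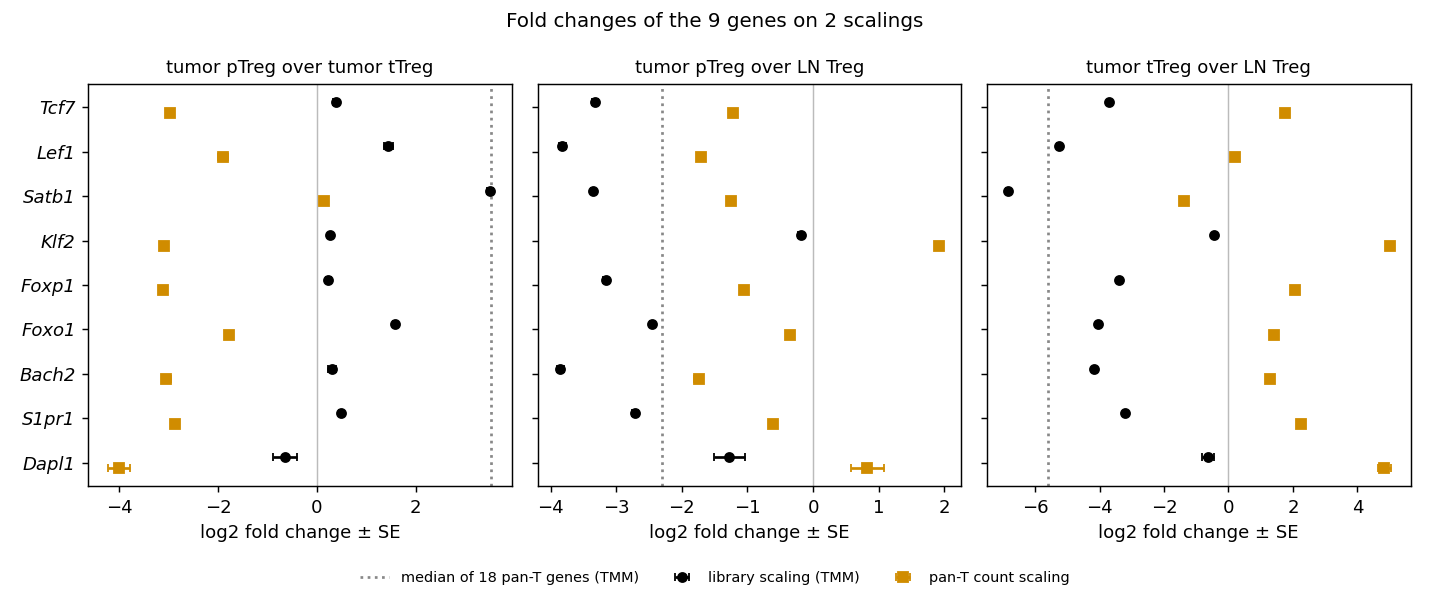
Log2 fold changes ± SE of the 9 genes in the 3 comparisons, with libraries scaled by TMM (black circles) and scaled to pan-T counts (orange squares), and the median of the 18 pan-T genes under TMM as a dotted line. Under TMM all 9 genes lie below 0 against LN Treg in both tumor groups, whereas under pan-T scaling 7 of 9 do in tumor pTreg and 1 of 9, Satb1, in tumor tTreg.

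Scaling each library to its pan-T counts moved the median of all tested genes by -3.35 for tumor pTreg over tumor tTreg, 2.11 for tumor pTreg over LN Treg and 5.46 for tumor tTreg over LN Treg on the log2 scale, and the values of the 9 genes read differently on it. Between tumor pTreg and LN Treg, 7 of the 9 genes were called lower per pan-T count, while 4.34% of all tested genes were, and Klf2 and Dapl1 were called higher with 91% of all tested genes. On the same scale Cd8a was 13.2-fold and Cd8b1 3.33-fold higher in tumor pTreg than in LN Treg, and 1 of the 6 Treg markers was called higher and 4 lower, with a median 2.84-fold lower. The T cell transcripts to which the libraries were scaled thus came with other proportions of CD8 and Treg markers in tumor pTreg than in LN Treg, and the part of this in the result was not tested. Lef1 had 0.991, 0.809 and 0.885 counts per 100 pan-T counts in tumor pTreg, against 2.93, 3.01, 2.84 and 2.93 in LN Treg. Bach2 had 0.681, 0.713 and 0.665 in tumor pTreg, against 2.28, 2.43, 2.19 and 2.29 in LN Treg. Both lay far below their lymph node range in every tumor pTreg library, by 3.27-fold for Lef1 and 3.35-fold for Bach2. Satb1 was 2.37-fold lower, Tcf7 2.32-fold, Foxp1 2.07-fold, S1pr1 1.52-fold and Foxo1 1.27-fold. Klf2 was 3.78-fold higher per pan-T count, at 19.3 ± 0.367 in tumor pTreg and 5.09 ± 0.113 in LN Treg. With the 4 CD3 genes in place of the pan-T list the same 7 genes were called lower, where 3.87% of tested genes were lower and 91.4% higher.

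Between tumor tTreg and LN Treg, Satb1 was the one gene of the 9 called lower per pan-T count, where 1.04% of tested genes were called lower and 96.7% higher. It had 3.68, 3.21, 3.44, 3.38 and 3.31 counts per 100 pan-T counts in tumor tTreg, against 9.08, 9.02, 8.84 and 8.82 in LN Treg, a difference of 2.63-fold with no overlap. Lef1 was close to level, at 3.35 ± 0.497 in tumor tTreg and 2.93 ± 0.0691 in LN Treg, with overlapping groups and a log2 fold change of 0.19 (adjusted p = 0.0232). Klf2 and Dapl1 were 32.1 and 28.5-fold higher per pan-T count in tumor tTreg. Levels on this scale in tumor tTreg rest on 2430 to 2543 pan-T counts per library, against 24827 to 25099 in tumor pTreg and 93975 to 112693 in LN Treg. Per pan-T count, 8 of the 9 genes were called lower in tumor pTreg when set against tumor tTreg, as were 97.1% of all tested genes, and Satb1 was called higher by a log2 fold change of 0.15 (adjusted p = 0.0494), where 0.548% of tested genes were called higher. Satb1 had 3.68, 3.90 and 3.73 counts per 100 pan-T counts in tumor pTreg, which touched the highest tumor tTreg library at 3.68, and the CD3 scaling gave a log2 fold change of -0.06 (adjusted p = 0.565). On that scaling the other 8 genes were again called lower in tumor pTreg, where 97.5% of tested genes were lower and 0.388% higher, and for tumor tTreg over LN Treg it again gave 8 higher calls and 1 lower, where 97.1% of tested genes were higher and 0.783% lower.

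**Figure D3:**
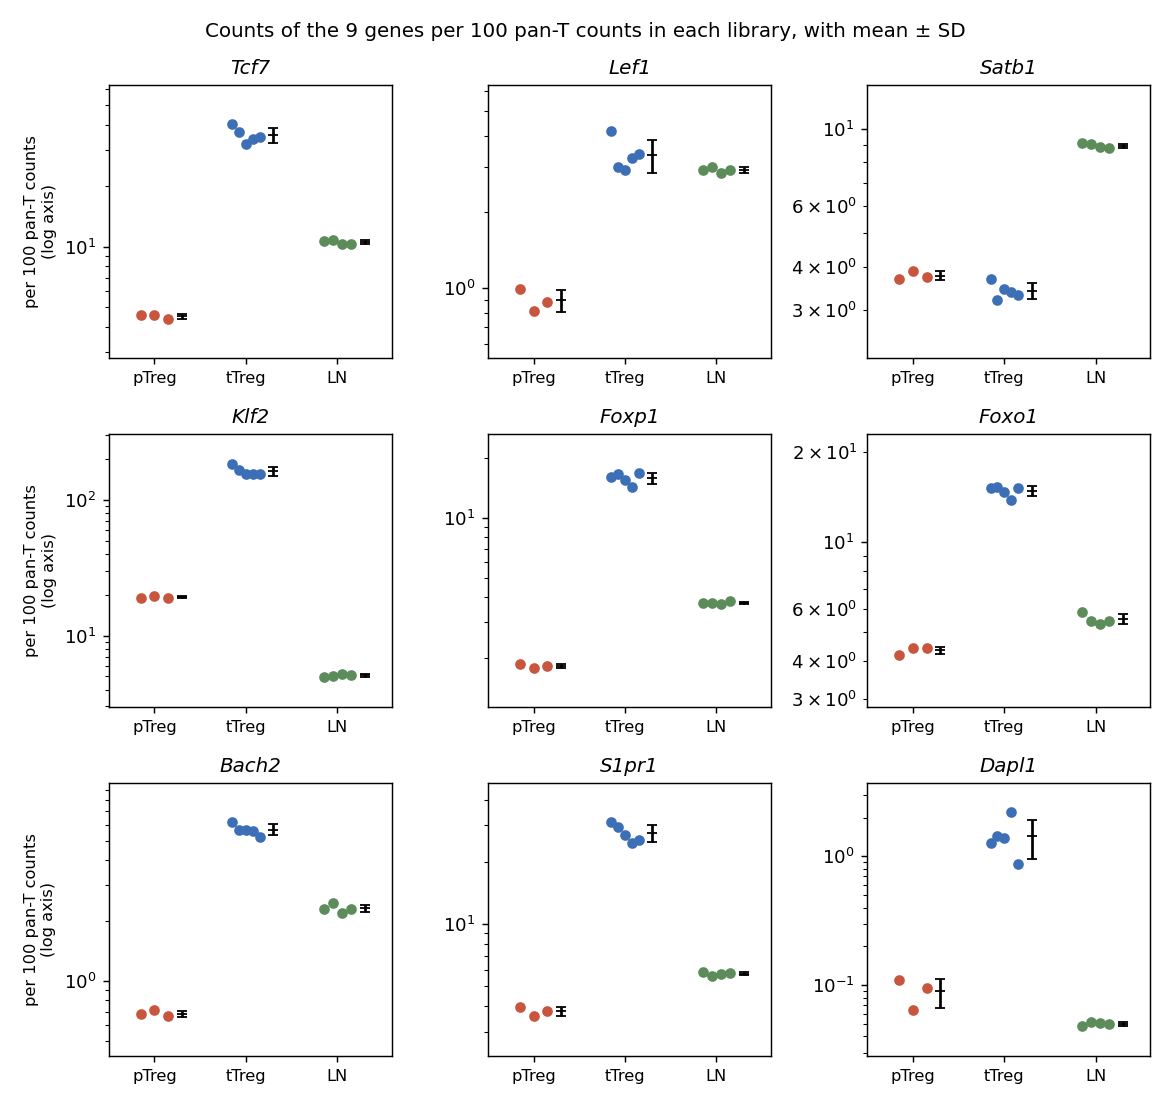
Counts of each gene per 100 counts of the 18 pan-T genes in every library on a log axis, with tumor pTreg, tumor tTreg and LN Treg from left to right and a bar for mean ± SD. Satb1 averages 3.77 in tumor pTreg, 3.41 in tumor tTreg and 8.94 in LN Treg, whereas Klf2 averages 19.3 in tumor pTreg, 163 in tumor tTreg and 5.09 in LN Treg.

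Other genes of the resting and homing program, listed apart from the 9, mostly moved the same way under TMM scaling. Of 19 such genes, 14 were called higher and 5 lower in tumor pTreg relative to tumor tTreg, with a median log2 fold change of 2.12. In tumor pTreg 2 were called higher and 17 lower than in LN Treg (median -2.40), and in tumor tTreg 2 were called higher and 17 lower (median -4.64). Among all tested genes 26.8% were called higher and 25.3% lower between the tumor groups. The shares were 47.6% and 39.8% for tumor pTreg over LN Treg, and 48.1% and 42.3% for tumor tTreg over LN Treg. They hold for each list below under TMM scaling. Ets1, a factor of T cell quiescence and survival, was 5.28-fold lower in tumor pTreg and 40.5-fold lower in tumor tTreg than in LN Treg. Itgb7, a chain of the gut-homing integrin, was 4.36-fold lower in tumor pTreg and 19.8-fold lower in tumor tTreg than in LN Treg. Igfbp4, a marker transcript of naive CD4 T cells that stromal and liver cells also make, went the other way, at 494 ± 14.2 CPM in tumor pTreg, 676 ± 27.3 CPM in tumor tTreg and 357 ± 15.1 CPM in LN Treg. Fibroblast markers stood beside Igfbp4 at 131 to 153 CPM in tumor pTreg, 660 to 783 CPM in tumor tTreg and 1.65 to 3.36 CPM in LN Treg, with all 7 called higher in each tumor group than in LN Treg, 6 called lower in tumor pTreg when set against tumor tTreg, and Col3a1, Pdgfra and Lum at 0 in LN Treg. Id3, an inhibitor of E proteins in resting and memory T cells, was the other gene called higher, at 101 ± 5.83 CPM in tumor pTreg, 111 ± 6.27 CPM in tumor tTreg and 40.7 ± 0.883 CPM in LN Treg. Per pan-T count 5 of the 19 genes were called higher and 11 lower in tumor pTreg than in LN Treg, and 12 were called higher and 5 lower in tumor tTreg than in LN Treg. The shares of all tested genes were 91% and 4.34% for tumor pTreg, and 96.7% and 1.04% for tumor tTreg. Between the tumor groups 1 of the 19 was called higher and 14 lower in tumor pTreg on that scale. There 0.548% of tested genes were called higher and 97.1% lower.

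Relatives of the 9 genes did not move with them as a group. Of 17 paralogs 15 were tested, and 8 were called higher and 7 lower in tumor pTreg than in LN Treg, as in tumor tTreg against LN Treg. The median log2 fold change of the paralogs was 0.44 for tumor pTreg over LN Treg and 0.67 for tumor tTreg over LN Treg. Klf6, Klf4 and Klf10, zinc finger factors of the family of Klf2, were all higher in the tumor groups. Klf4 was at 607 ± 5.08 CPM in tumor pTreg, 662 ± 26.9 CPM in tumor tTreg and 71.7 ± 3.22 CPM in LN Treg, and Klf10 was at 253 ± 0.386 CPM in tumor pTreg, 286 ± 4.56 CPM in tumor tTreg and 37.5 ± 1.84 CPM in LN Treg. Foxp3, the relative of Foxp1 that defines Treg cells, was at 20.3 ± 0.583 CPM in tumor pTreg, 8.74 ± 0.478 CPM in tumor tTreg and 441 ± 11.1 CPM in LN Treg. Bach2 was 14.4-fold lower and its nearest relative by name, Bach1, 4.58-fold higher in tumor pTreg than in LN Treg, and Bach1 is named here after its values were seen. Between the tumor groups 8 of the 15 tested paralogs were called higher in tumor pTreg and 3 lower. Per pan-T count 12 paralogs were called higher and 3 lower in tumor pTreg than in LN Treg, and 13 were called higher in tumor tTreg than in LN Treg. Among all tested genes 91% were called higher and 4.34% lower for tumor pTreg, and 96.7% were called higher for tumor tTreg.

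**Figure D4:**
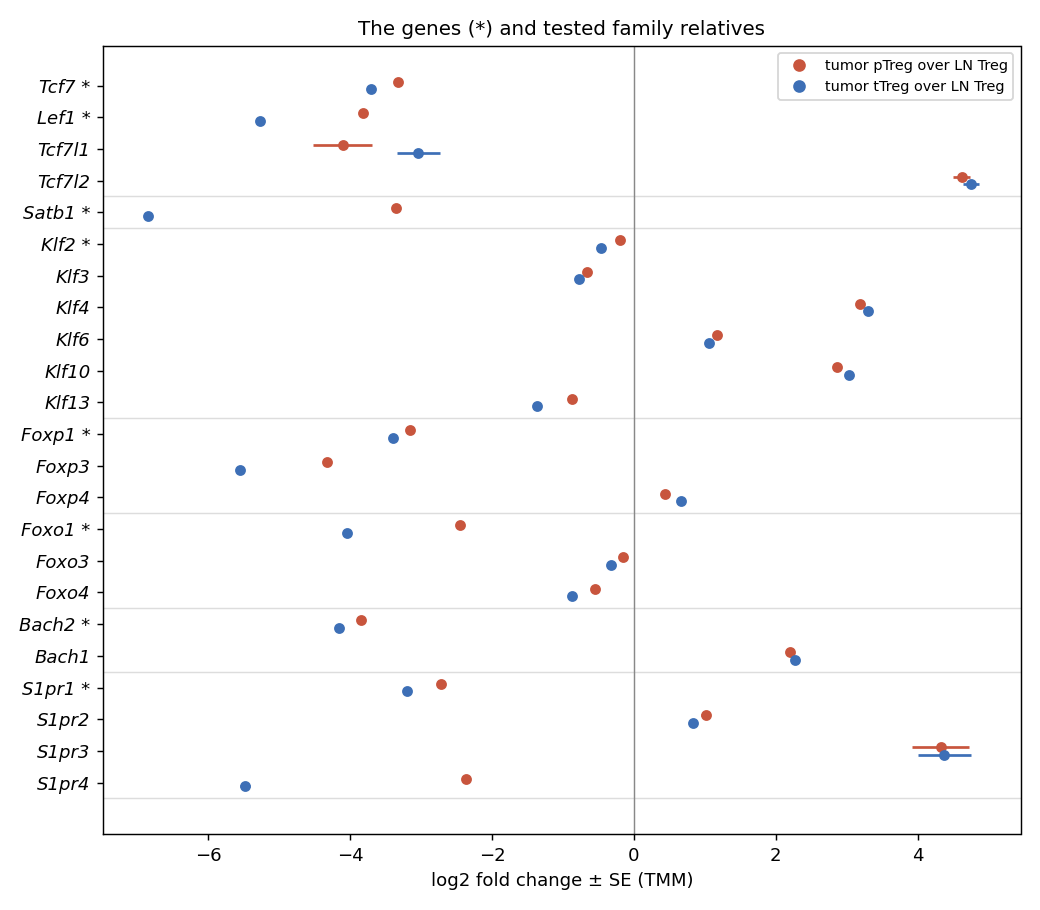
Log2 fold changes ± SE (TMM) of the genes, marked with an asterisk, and of tested family relatives, for tumor pTreg over LN Treg (red) and tumor tTreg over LN Treg (blue), with horizontal lines between families. Tcf7, Lef1, Satb1, Foxp1, Foxo1, Bach2 and S1pr1 lie at -2.45 or below in both comparisons, while Tcf7l2, Klf4, Klf6, Klf10, Foxp4, Bach1, S1pr2 and S1pr3 lie above 0 in both. Per pan-T count the values of Tcf7, Lef1, Foxp1, Foxo1, Bach2 and S1pr1 for tumor tTreg over LN Treg lie above 0.

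The partners and opponents of these factors were mixed. Among 10 Wnt partners of TCF-1 and LEF-1, 2 were called higher and 6 lower in tumor pTreg relative to tumor tTreg, and 7 were called higher and 3 lower in each tumor group than in LN Treg. Ctnnb1, the gene of beta-catenin, was at 315 ± 1.48 CPM in tumor pTreg, 353 ± 8.52 CPM in tumor tTreg and 217 ± 5.40 CPM in LN Treg, and Axin2, a Wnt target that limits beta-catenin, was 3.19-fold higher in tumor pTreg and 3.64-fold higher in tumor tTreg than in LN Treg, while Tcf7 and Lef1 were lower. Jup, a catenin of epithelial junctions, was at 254 CPM in tumor pTreg, 336 CPM in tumor tTreg and 1.85 CPM in LN Treg. Tle5, a short Groucho-type corepressor, was 1.39-fold lower in tumor pTreg and 1.41-fold lower in tumor tTreg than in LN Treg and was not called between the tumor groups (log2 fold change 0.01, adjusted p = 0.768). Per pan-T count all 10 partners were called higher in each tumor group than in LN Treg, and all 10 were called lower in tumor pTreg relative to tumor tTreg. Among all tested genes 91% were called higher for tumor pTreg over LN Treg and 96.7% for tumor tTreg over LN Treg. Between the tumor groups 97.1% were called lower, so these counts lie near the share of all genes.

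Of 12 genes around FOXO signalling, 5 were called higher and 1 lower in tumor pTreg relative to tumor tTreg, and 3 were called higher and 9 lower in each tumor group than in LN Treg. Sgk1, a kinase that inactivates FOXO factors, was at 396 ± 8.19 CPM in tumor pTreg, 382 ± 8.56 CPM in tumor tTreg and 78.9 ± 1.97 CPM in LN Treg, with Foxo1 lower in both tumor groups. Pik3cd, the leukocyte PI3K catalytic chain, was 3.40-fold lower in tumor pTreg and 6.38-fold lower in tumor tTreg than in LN Treg. Tsc22d3, a FOXO and glucocorticoid target, was 2.62-fold lower in tumor pTreg and 3.61-fold lower in tumor tTreg. Pik3r1, a regulatory chain of PI3K, was 1.63-fold lower in tumor pTreg and 1.47-fold lower in tumor tTreg than in LN Treg. Per pan-T count 11 of the 12 genes were called higher and 1 lower in tumor pTreg than in LN Treg, and all 12 were called higher in tumor tTreg. The higher calls lie near the share of all tested genes, 91% for tumor pTreg and 96.7% for tumor tTreg.

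Around S1pr1, 10 genes of sphingosine 1-phosphate handling and egress gave 5 higher and 3 lower calls in tumor pTreg over tumor tTreg, 3 higher and 6 lower in tumor pTreg over LN Treg, and 3 higher and 7 lower in tumor tTreg over LN Treg. Cd69, whose product pulls the S1PR1 protein from the cell surface, was at 211 ± 6.25 CPM in tumor pTreg, 45.3 ± 2.61 CPM in tumor tTreg and 523 ± 13.9 CPM in LN Treg. Per pan-T count Cd69 had a log2 fold change of 0.90 for tumor pTreg over LN Treg, where S1pr1 had -0.60. In the other comparisons on that scale Cd69 and S1pr1 shared their direction. Both were called higher for tumor tTreg over LN Treg, as were 96.7% of all tested genes. Both were called lower for tumor pTreg over tumor tTreg, as were 97.1%. Grk2, the kinase that desensitises the receptor, was 2.03-fold lower in tumor pTreg and 2.76-fold lower in tumor tTreg than in LN Treg. Gnai2, a G protein through which S1PR1 signals, was 1.21-fold lower in tumor pTreg and 1.46-fold lower in tumor tTreg. Rac2, a GTPase of leukocyte migration, was 3.25-fold lower in tumor pTreg and 8.56-fold lower in tumor tTreg than in LN Treg. Per pan-T count 9 of the 10 genes were called higher in tumor pTreg than in LN Treg, and all 10 in tumor tTreg. These calls lie near the share of all tested genes, 91% for tumor pTreg and 96.7% for tumor tTreg.

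Effector counterparts are genes which resting factors are known to hold down. Of 10 such genes, 8 were called higher in tumor pTreg than in tumor tTreg under TMM scaling, and 2 were not called. Among all tested genes 26.8% were called higher in that comparison. Against LN Treg 7 were called higher and 3 lower in tumor pTreg, and 4 higher and 6 lower in tumor tTreg. Id2, an inhibitor of E proteins in effector cells, was 5.88-fold higher in tumor pTreg and 4.42-fold higher in tumor tTreg than in LN Treg. Cd44, an adhesion receptor raised on activated cells and present on many others, was 3.13-fold higher in tumor pTreg and 3.03-fold higher in tumor tTreg than in LN Treg, with a log2 fold change of 0.04 between the tumor groups (adjusted p = 0.178). Batf, an AP-1 factor of tissue Treg cells, was at 19.5 ± 0.462 CPM in tumor pTreg, 6.63 ± 0.880 CPM in tumor tTreg and 45.3 ± 2.20 CPM in LN Treg. Maf was 1.19-fold higher in tumor pTreg and 1.42-fold lower in tumor tTreg than in LN Treg. Per pan-T count all 10 effector counterparts were called higher in each tumor group than in LN Treg, as were 91% of tested genes for tumor pTreg and 96.7% for tumor tTreg. Between the tumor groups the calls turned on that scale, with 1 of the 10 higher and 9 lower in tumor pTreg. There 0.548% of tested genes were called higher and 97.1% lower.

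Genes whose pair of log2 fold changes against LN Treg lay nearest to that of a member were looked up among 8132 tested genes with at least 10 CPM in LN Treg, over the 3 groups and 12 libraries. Nearest to Satb1 were Zfp827, with log2 fold changes of -3.27 for tumor pTreg and -6.98 for tumor tTreg (distance 0.16), and Gpr174 (-3.30 and -6.58, distance 0.28). Nearest to Tcf7 was Tspan32 (distance 0.08), to Lef1 Ipcef1 (0.13), to Foxo1 Zfp677 (0.08), to S1pr1 Miga1 (0.04), to Foxp1 Slc14a1 (0.11), to Bach2 Rflnb (0.10) and to Dapl1 Zscan12 (0.22). Klf2 had the closest neighbour, Reep4 (-0.19 and -0.46), at a distance of 0.0014. Among all tested genes 39.7% had a more negative log2 fold change than Klf2 for tumor pTreg, and 34.3% for tumor tTreg. The number of genes around each member was not taken into account, so these distances do not rank similarity across members.

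The deposited counts and FPKM together imply the length with which each gene was scaled in each library. It can differ between libraries, since RSEM weights the transcripts of a gene by their estimated shares. For genes with 1 annotated transcript in GENCODE vM21 the implied length was nearly the same in all groups. It averaged 8392 bases in tumor pTreg, 8395 bases in tumor tTreg and 8393 bases in LN Treg for Foxo1, and 1542 bases in tumor pTreg, 1537 bases in tumor tTreg and 1540.4 bases in LN Treg for Klf2. Both genes lay below their annotated transcript length, 8665 bases for Foxo1 and 1847 bases for Klf2. An implied length is thus not a full transcript length. Foxp1, with 31 annotated transcripts, had 3302, 2728 and 3084 bases in tumor pTreg, 2482, 2725, 2677, 3005 and 2675 bases in tumor tTreg and 4041, 4234, 3947 and 4234 bases in LN Treg. Both tumor groups lay below the lymph node libraries without overlap, at ratios of 0.738 for tumor pTreg and 0.659 for tumor tTreg over LN Treg. Lef1, with 8 transcripts, went the other way, with 2274 to 2496 bases in tumor pTreg, 2445 to 2658 bases in tumor tTreg and 2150 to 2202 bases in LN Treg (ratios of 1.1 for tumor pTreg and 1.18 for tumor tTreg over LN Treg). Satb1, with 14 transcripts, was separated in tumor tTreg over LN Treg (ratio 0.825), and Bach2, with 7, in tumor pTreg over LN Treg (ratio 0.846). Groups separated by more than 1.1-fold were found for 11.8% of 10237 genes in tumor pTreg against LN Treg and for 12.1% in tumor tTreg against LN Treg. They were found for 3 of these 9 genes in each (Lef1, Foxp1 and Bach2 in tumor pTreg, and Lef1, Foxp1 and Satb1 in tumor tTreg). Lef1 in tumor pTreg lay at the edge of that cut, with a ratio of 1.08 to 1.13 when single libraries were left out. In two-sided exact permutation tests the separated genes had p = 0.0571 for tumor pTreg over LN Treg and p = 0.0159 for tumor tTreg over LN Treg, the smallest these group sizes allow, and none of 27 such tests passed adjustment (Benjamini-Hochberg p of 0.214 and 0.143). An implied length is an estimate made from short reads and depends on the depth of each gene, which in the tumor libraries was 203 to 246 counts for Lef1 in tumor pTreg and 73 to 102 in tumor tTreg.

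**Figure D5:**
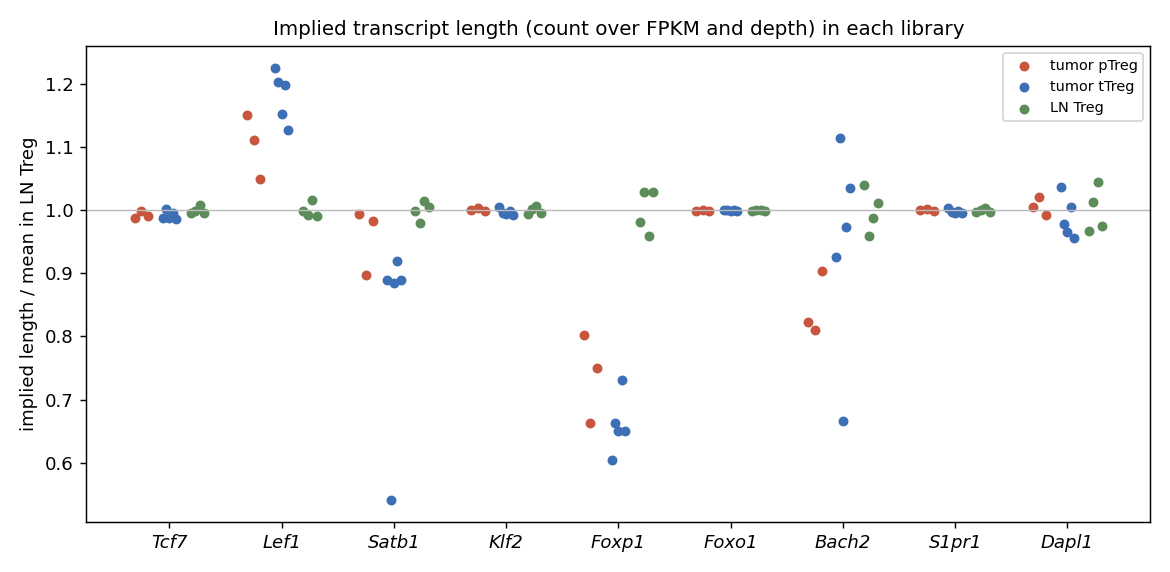
Implied transcript length of each gene in each library, divided by its mean in LN Treg, with tumor pTreg (red), tumor tTreg (blue) and LN Treg (green) from left to right for each gene. Foxp1 lies below 1 and Lef1 above 1 in all tumor libraries, while Foxo1, Klf2, S1pr1 and Tcf7 stay at 1.

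For Tcf7, Lef1, Satb1, Foxo1 and Bach2 the annotation holds 1 gene on the opposite strand that overlaps the gene body, and no source used here says whether the counting used strand. Overlap was looked up for whole gene bodies and not for exons. Whether reads of those transcripts were counted in the 5 genes was therefore not tested. Genes on the same strand can overlap as well, as for Foxp1, with 4 overlapping genes and 0 of them on the opposite strand.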

How the data were processed

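Total RNA was extracted with TRIzol, and libraries were made by BGI Genomics and read on a BGISEQ-500, per the labels. The authors deposited a table of expected counts and a table of FPKM for the same 12 libraries. The submitters' processing notes name STAR 2.7.11a, RSEM 1.3.3, DESeq2 and the build GRCm38 or mm10. The notes give no roles for these tools, so the unit of expected counts was taken from the values and the named tools, and the deposited FPKM was taken as scaled to library size and transcript length. No source used here gives the annotation. Positions came from GENCODE vM21 (GRCm38), in which 53292 of 55413 symbols were found, and promoters from RefSeq (GRCm38.p6).

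Expected counts were rounded and tested with the quasi-likelihood F test of edgeR 4.0.16 in R 4.3.3: TMM factors, filterByExpr by group, all 12 libraries in 1 fit with group as the only factor, Benjamini-Hochberg adjustment over the 15705 genes tested, and calls at an adjusted p below 0.05. CPM used the library totals, and errors are SD over libraries unless marked SE. Between libraries of one group the chi-square over its degrees of freedom was 1.65 to 3.97, above the value of 1 that sampling noise gives. Such a value cannot tell separate animals from repeat preparations of 1 sample. Each library was taken as 1 unit. The implied transcript length was the count divided by FPKM and by the library total in M, for genes with at least 20 counts and an FPKM of at least 0.5 where shares of all genes are given. The alternatives were other scalings, filters, tools (limma 3.58.1, DESeq2 1.42.0), FPKM on a log2 scale with pseudocounts of 1 and 0.1, the compared groups only, a block for the replicate number, and leaving out single libraries. Alternatives for the implied length were chosen after seeing the data.

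The 9 genes, the lists and the scalings to pan-T and CD3 counts were chosen with earlier results of these data known. All 9 genes are named, and of each further list the 4 members of the highest mean FPKM. Of similar genes 2 per member were found, those nearest in the 2 log2 fold changes against LN Treg, without predicted genes, pseudogenes and listed genes. Klf3, S1pr4, Foxo3 and Foxo4 stand on 2 lists each. Of the further lists, 2 hold 1 gene less than planned, a gene not reported here.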

Additional observations from a re-analysis of the deposited data

Results flagged for a closer look

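In 54 groups of 4 or 5 values for the 9 genes (CPM, FPKM and implied length), 4 held a library far from the others, with a gap of more than 0.710 of the range of the 5 tumor tTreg libraries. Chance alone gives such a gap in about 5% of groups. Satb1 had 2.08 FPKM in the second tumor tTreg library and 1.35 to 1.46 FPKM in the other tumor tTreg libraries, a gap of 0.849 of the range. The implied transcript length of Satb1 in the same library was 2049 bases, against 3357 to 3489 bases in the others, a gap of 0.908 of the range, while its 78 counts of Satb1 lay close to the 83 to 90 counts of the others. Klf2 had 245 CPM in the first tumor tTreg library and 213 to 221 CPM in the others (0.737 of the range), and 158 FPKM against 139 to 144 FPKM (0.727 of the range). Leaving out any 1 library changed no call of Satb1 or Klf2.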

How the results depend on the processing

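Of the log2 fold changes of the 9 genes in 3 comparisons, 26 of 27 kept direction and call with DESeq2, RLE factors, library totals, no filter on low counts, fits of the compared groups only and limma-voom, and the remaining one, Dapl1 between the tumor groups, kept both in all of these except limma-voom. The lower call between the tumor groups, 1 gene (Dapl1), became 0 with limma-voom (log2 fold change -0.59, adjusted p = 0.0638) and 0 with a filter at a mean of 5 CPM, which removes Dapl1, and it was 0 to 1 with single libraries left out. Foxp1 and Bach2 lost their calls between the tumor groups in the FPKM fits. The replicate numbers did not pair the libraries (correlations of same-numbered deviations -0.058 to 0.056), and with the replicate block the same 8 genes were called higher and 1 lower between the tumor groups (Satb1 3.48, Dapl1 -0.68), with 9 lower in both comparisons with LN Treg.

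Scaling to pan-T or CD3 counts moved the median gene by -3.35 or -3.56 (tumor pTreg over tumor tTreg), 2.11 or 2.19 (tumor pTreg over LN Treg) and 5.46 or 5.75 (tumor tTreg over LN Treg), and library totals moved it by -0.10 for tumor pTreg over LN Treg. Calls became 1 or 0 higher and 8 or 8 lower for tumor pTreg over tumor tTreg (all tested genes: 97.1% or 97.5% lower), 2 or 2 higher for tumor pTreg over LN Treg (91% or 91.4%), and 8 or 8 higher and 1 or 1 lower for tumor tTreg over LN Treg (96.7% or 97.1% higher), so the counts of 8 lie near the share of all genes. Signs turned for tumor pTreg over tumor tTreg in Tcf7 (-2.98, CD3 -3.19), Lef1 (-1.90, CD3 -2.11), Klf2 (-3.08, CD3 -3.30), Foxp1 (-3.12, CD3 -3.33), Foxo1 (-1.77, CD3 -1.98), Bach2 (-3.05, CD3 -3.25), S1pr1 (-2.87, CD3 -3.08) and, with CD3, Satb1 (-0.0605). They turned for tumor pTreg over LN Treg in Klf2 (1.92, CD3 2.01) and Dapl1 (0.83, CD3 0.91). For tumor tTreg over LN Treg they turned in Tcf7 (1.76, CD3 2.06), Lef1 (0.19, CD3 0.49), Klf2 (5.0, CD3 5.30), Foxp1 (2.07, CD3 2.37), Foxo1 (1.43, CD3 1.72), Bach2 (1.3, CD3 1.60), S1pr1 (2.26, CD3 2.56) and Dapl1 (4.83, CD3 5.12). These scalings divide by T cell transcripts, whose share of the library differs between the groups, and so move all genes alike. The implied length ratio of Bach2 for tumor tTreg over LN Treg was 0.943 in all libraries and 0.900 to 1.01 with single libraries left out, the highest without tumor tTreg replicate 3. The cause was not tested. Dapl1, at 16 to 57 counts, is the gene limited by depth, and in tumor tTreg so are Lef1 and Satb1 at 73 to 102 counts.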
